A study of Homo sapiens with 4 samples.

Results

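The mitotic kinesins are motor proteins that move along microtubules or take them apart while a cell divides. The 10 genes described here are KIF11, KIF15, KIFC1, CENPE, KIF18A, KIF2C, KIF4A, KIF14, KIF20A and KIF23. They were picked by name as motors of the spindle, the chromosomes and the division site, and they are 10 of the 28729 genes in the expression table. The study examined SKA3, a protein of the outer kinetochore that ties chromosomes to spindle microtubules, in laryngeal squamous cell carcinoma (LSCC). Its sequencing experiment asked which mRNAs change in the LSCC cell line TU-177 when SKA3 is knocked down. The 2 negative control (NC) libraries came from TU-177 cells given a lentivirus with a control short hairpin RNA, and the 2 SKA3-KD libraries from TU-177 cells given a lentivirus with a hairpin against SKA3. Cells of both groups were selected with puromycin before harvest, and total RNA was sequenced. The model is 1 cell line, the labels do not tell how many hairpins were used, and nothing in the sources says that the libraries of a group came from separate cultures, so p-values measure only the spread between these libraries.

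SKA3 itself was at 9.40 FPKM (fragments per kilobase of transcript, scaled to the library's size) in the NC 1 library and 9.64 FPKM in NC 2. In the SKA3-KD libraries it was at 3.77 and 4.12 FPKM. Both SKA3-KD libraries lay below both NC libraries, a fall of 1.09 ± 0.07 (SE) on the log2(FPKM + 1) scale (limma across 12645 genes, adjusted p = 0.00806), and the adjusted p was 0.0660 without NC 1 and 0.060 without NC 2. From the steps of the FPKM values, the 4 libraries were estimated to hold between 9015056 and 11966130 fragments. Of the epithelial markers checked, not all of them particular to squamous epithelium, KRT8 was at 430.0 to 452.6 FPKM in the 4 libraries. KRT17 was at 45.6 and 49.1 FPKM in NC and at 29.4 and 35.7 FPKM in SKA3-KD (limma, adjusted p = 0.0396), and KRT18 was at 31.1 and 31.5 FPKM in NC and at 39.2 and 38.6 FPKM in SKA3-KD (limma, adjusted p = 0.0332). EPCAM was at 2.73 to 2.95 FPKM. KRT5, KRT14 and KRT6A were at or near 0, and TP63 and CDH1 reached at most 0.580 and 0.447 FPKM. Thus of the squamous keratins listed KRT17 was present, and these 5 markers were absent or low. Of the 10 markers of other cell types, 8 were in the table. Their summed level ran from 12.5 to 13.3 FPKM in NC and from 5.54 to 5.85 FPKM in SKA3-KD, most of it decorin (DCN) and the collagen gene COL1A1, with PTPRC, CD68, VWF, GFAP and MYH11 each at most 0.0976 FPKM. DCN was at 8.40 and 8.36 FPKM in NC and at 2.48 and 2.35 FPKM in SKA3-KD, and its part in the kinesin results was not tested.

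Kinesins turn the energy of ATP into steps along microtubules, and most walk towards the growing plus end. In mitosis one set builds the bipolar spindle, another moves chromosomes and corrects their attachment, and the last bundles the midzone microtubules on which cytokinesis depends. Most of their genes are transcribed late in the cell cycle, under promoters that carry a cell cycle genes homology region (CHR), read by the DREAM repressor and by complexes of B-MYB and FOXM1, often with CCAAT boxes bound by NF-Y. In bulk RNA, a larger share of cells in mitosis and more RNA per cell cannot be told apart, and the same holds for fewer cells and less RNA per cell.

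Promoters of 5 members are printed to show these elements in a gene that was not higher after SKA3 knockdown (KIF11) and in 4 that were (KIF18A, KIF23, KIF20A and KIF2C). Each run is 145 bases, from 120 bases before the RefSeq transcription start to 24 bases after it (GRCh38.p14), 5′ to 3′ on the gene's strand. Capitals mark TTTGAA or TTTAAA, forms of the CHR, and CCAAT, on either strand, so that TTCAAA and ATTGG are TTTGAA and CCAAT read on the other strand. The windows lie at chr10:92593010-92593154 on the plus strand for KIF11, chr11:28108132-28108276 on the minus strand for KIF18A, chr15:69414229-69414373 on the plus strand for KIF23, chr5:138178992-138179136 on the plus strand for KIF20A and chr1:44739717-44739861 on the plus strand for KIF2C.
KIF11: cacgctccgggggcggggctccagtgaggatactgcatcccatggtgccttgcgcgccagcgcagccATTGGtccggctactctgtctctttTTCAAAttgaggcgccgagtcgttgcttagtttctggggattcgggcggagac
KIF18A: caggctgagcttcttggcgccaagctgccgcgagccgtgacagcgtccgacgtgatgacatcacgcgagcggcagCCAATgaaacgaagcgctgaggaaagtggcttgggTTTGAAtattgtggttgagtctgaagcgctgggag
KIF23: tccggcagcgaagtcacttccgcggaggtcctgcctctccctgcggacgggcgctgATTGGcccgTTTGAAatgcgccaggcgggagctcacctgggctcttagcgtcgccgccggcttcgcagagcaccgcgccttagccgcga
KIF20A: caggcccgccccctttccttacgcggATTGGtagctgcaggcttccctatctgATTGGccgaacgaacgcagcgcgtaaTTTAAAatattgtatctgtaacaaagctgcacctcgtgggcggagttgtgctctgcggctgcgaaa
KIF2C: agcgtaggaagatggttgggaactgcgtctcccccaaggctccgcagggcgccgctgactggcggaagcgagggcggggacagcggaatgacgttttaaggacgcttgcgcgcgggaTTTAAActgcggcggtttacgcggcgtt

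KIF11, KIF18A and KIF23 each held a CCAAT box with TTTGAA downstream of it. KIF20A had a pair of CCAAT boxes followed by TTTAAA in the place of TTTGAA, and KIF2C had TTTAAA across the transcription start and no CCAAT. In windows of 300 bases (250 before the start and 50 from it on), TTTGAA was in 7 of 10 members, against 15.2% of all 35116 RefSeq windows and 10.2% of the 12953 windows of genes tested. TTTAAA was in 5 members against 12.2% of all windows, and it can also occur as part of a TATA box. The CCAAT box was in 7 members against 34.6%, TTTGAA together with CCAAT in 6 members against 5.9%, and at least 1 of the CHR forms searched in all 10 against 25.1%. The remaining CHR form, TTCGAA, was in none of the 10 (1.45% of all windows), TTTCGCGC in none (0.515%), TTGGCGG in KIF11 and KIF4A (3.43%) and CACGTG in CENPE (7.26%). Both strands were searched for each of the 7 motifs, and the motifs and the promoters printed were chosen after values had been seen. A match describes letters and is not a bound site. The 6 members with both TTTGAA and CCAAT were KIF11, KIFC1, KIF18A, KIF4A, KIF14 and KIF23.

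**Figure D1:**
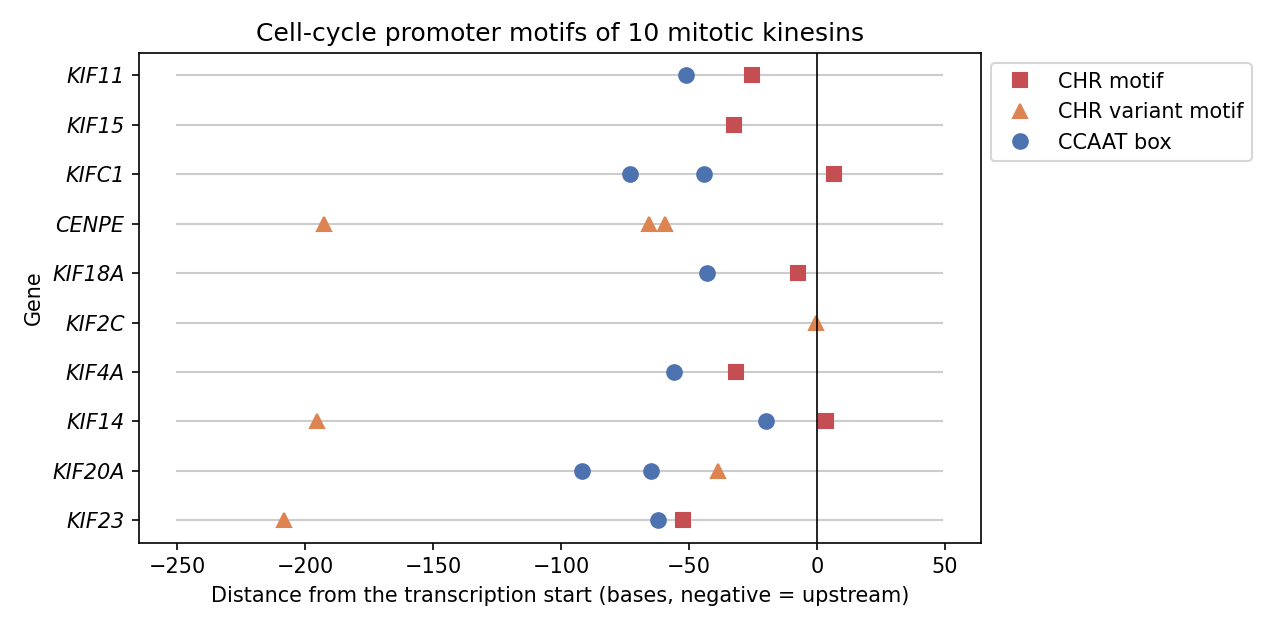
Positions of CHR forms and CCAAT boxes in the promoters of the 10 mitotic kinesins. The horizontal axis is the distance in bases from the RefSeq transcription start, negative upstream, each row is a gene, squares are TTTGAA, triangles are TTTAAA and circles are CCAAT on either strand; 7 members hold TTTGAA and the other 3, CENPE, KIF2C and KIF20A, hold TTTAAA.

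After SKA3 knockdown the mRNAs of KIF2C, KIF18A, KIF14, KIF23 and KIF20A rose, by 35.7% to 55.3% of the NC mean, and no member fell past the threshold. Of the 10 members, 5 were higher at an adjusted p under 0.05 by limma, where 6.16% of all genes tested were higher and 6.11% lower. In 9 members both SKA3-KD libraries lay above both NC libraries, as they did in 32.3% of all genes tested, and in 1, KIF11, both lay below, as in 29.2%. The median log2 fold change of the 10 was 0.40, against 0.01 over all genes tested. It was 0.45 for SKA3-KD 1 and 0.40 for SKA3-KD 2, each taken against the NC mean, while NC 2 differed from NC 1 by a median of -0.15. The number of members higher was 9 by limma voom on recovered reads, where 13.8% of all genes were higher, 2 without a mean-variance trend (2.47% of all genes) and 0 without the filter on low values (0.181%). It was 0 when any single library was left out, whether NC 1, NC 2, SKA3-KD 1 or SKA3-KD 2, with at most 0.364% of all genes higher. At an unadjusted p under 0.05 by limma, 9 members were higher and 0 lower, against 16.2% of all genes tested higher and 15.1% lower. With a library left out, 7 or 8 members were higher at that level, against 10.8% to 14.2% of all genes. KIF11 was lower at that level by voom, with the replicate block and without NC 2, where its limma adjusted p was 0.0866, 0.110 and 0.120. The leave-one-out medians ran from 0.37 to 0.49.

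**Figure D2:**
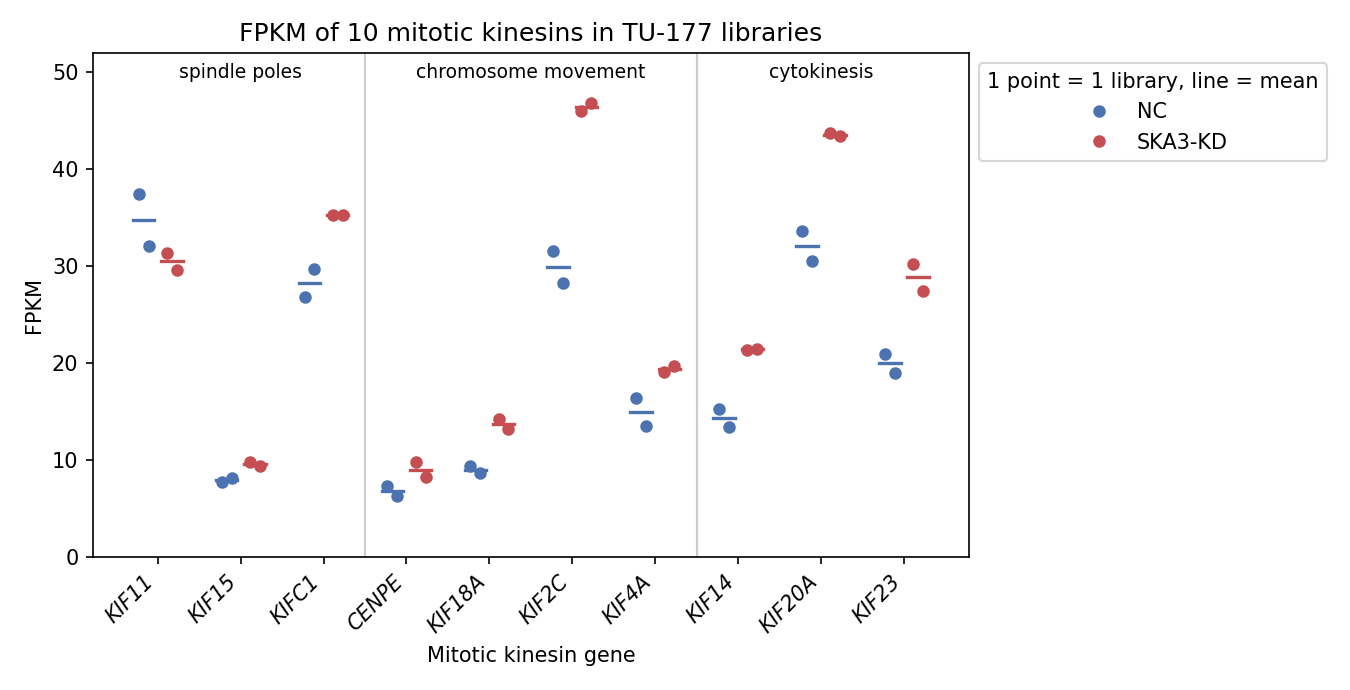
Levels of the 10 mitotic kinesins in FPKM, on a linear axis from 0, by gene and grouped by role. Each point is 1 library (blue NC, red SKA3-KD) and each short line the mean of 2 libraries; in every gene but KIF11 the red points lie above the blue ones.

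Among the members that set the distance between the spindle poles, none of 3 passed the threshold. KIF11 (ENSG00000138160) is the plus-end motor that slides antiparallel microtubules apart and so separates the poles. It was at 37.4 and 32.1 FPKM in NC 1 and NC 2 and at 31.4 and 29.6 FPKM in SKA3-KD 1 and SKA3-KD 2. It was the only member with both SKA3-KD libraries below both NC libraries, and SKA3-KD 1 lay just under NC 2. The log2 fold change was -0.18 ± 0.09 (SE; limma, adjusted p = 0.248), smaller than the gap of -0.21 between its NC libraries, and it ran from -0.29 without NC 2 to -0.07 without NC 1.

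KIF15 (ENSG00000163808) helps KIF11 keep the spindle bipolar. It was at 7.75 and 8.19 FPKM in NC 1 and NC 2 and at 9.87 and 9.40 FPKM in SKA3-KD 1 and SKA3-KD 2. The groups did not overlap, and the log2 fold change was 0.25 ± 0.07 (SE; limma, adjusted p = 0.0833). The gene TMEM42 lies inside KIF15 on the same strand, at 4.92 and 3.93 FPKM in NC and at 6.20 and 5.73 FPKM in SKA3-KD. Its log2 fold change was 0.37 (limma, adjusted p = 0.102), and reads of the shared part could be counted for either gene. KIFC1 (ENSG00000237649) is a minus-end motor that gathers microtubules into poles and pulls against KIF11. It was at 26.9 and 29.7 FPKM in NC and at 35.3 FPKM in both SKA3-KD libraries. Its groups did not overlap either, and its log2 fold change of 0.31 ± 0.07 (SE) just missed the threshold (limma, adjusted p = 0.0507).

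The ratio of KIF11 to KIFC1 FPKM was 1.39 and 1.08 in NC and 0.890 and 0.839 in SKA3-KD, so that KIF11 was the higher of the pair in NC and the lower in SKA3-KD. The ratio of KIF15 to KIF11 was 0.207 and 0.255 in NC and 0.314 and 0.317 in SKA3-KD. These ratios, chosen after values had been seen, did not overlap between groups, but an exact two-sided permutation test of 2 against 2 libraries cannot give a p below 0.333. The summed level of KIF11, KIF15 and KIFC1 was 72.05 and 69.97 FPKM in NC and 76.6 and 74.3 FPKM in SKA3-KD, the smallest difference of the role groups.

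Of the 4 members grouped under chromosome movement, KIF2C and KIF18A rose, where 6.16% of all genes tested were higher by limma. KIF2C (ENSG00000142945), also known as MCAK, does not walk but strips tubulin from microtubule ends, which lets wrong kinetochore attachments be undone. It was at 31.6 and 28.3 FPKM in NC and at 46.1 and 46.9 FPKM in SKA3-KD. The lowest SKA3-KD library stood well clear of the highest NC library, and the rise, by 55.3% or 0.62 ± 0.07 (SE) on the log2 scale (limma, adjusted p = 0.0150), was the largest among the members. Antisense gene ENSG00000225721 overlaps KIF2C and was at 0.257 to 1.33 FPKM. The ratio of KIF2C to KIF11 was 0.843 and 0.882 in NC and 1.47 and 1.58 in SKA3-KD, under the same limit of 2 against 2 libraries as the ratios above.

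KIF18A (ENSG00000121621) sits at the plus ends of kinetochore microtubules and damps their growth, so that chromosomes hold their place at the spindle equator. It was at 9.43 and 8.65 FPKM in NC and at 14.2 and 13.2 FPKM in SKA3-KD. The groups did not overlap, and the log2 fold change was 0.55 ± 0.08 (SE; limma, adjusted p = 0.0209). Both KIF2C and KIF18A lost the call when any 1 library was left out. The adjusted p then ran from 0.0631 (without NC 2) to 0.0745 (without SKA3-KD 1) for KIF2C and from 0.0710 (without SKA3-KD 2) to 0.0988 (without SKA3-KD 1) for KIF18A.

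CENPE (ENSG00000138778), the kinetochore motor that carries chromosomes from the poles to the equator, was at 7.34 and 6.37 FPKM in NC and at 9.78 and 8.23 FPKM in SKA3-KD. The groups did not overlap, but on the log2 scale its SKA3-KD libraries lay farther apart than those of any other member, and the log2 fold change of 0.35 ± 0.11 (SE) did not pass (limma, adjusted p = 0.107). KIF4A (ENSG00000090889) binds chromosome arms and, later, the midzone, where it limits microtubule length. It was at 16.4 and 13.5 FPKM in NC and at 19.1 and 19.7 FPKM in SKA3-KD. All SKA3-KD values lay above all NC values, with a log2 fold change of 0.36 ± 0.10 (SE; limma, adjusted p = 0.0835), which was 0.23 without NC 2 and 0.49 without NC 1. KIF4B, a near-identical copy of KIF4A whose reads could be exchanged with it, was listed at 0 in 3 libraries and at 0.0192 FPKM in SKA3-KD 2. The 4 motors summed to 64.7 and 56.8 FPKM in NC and to 89.2 and 88.0 FPKM in SKA3-KD.

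All 3 members grouped under cytokinesis rose, where 6.16% of all genes tested were higher by limma. KIF20B, which takes part in late cytokinesis and is not among the members, fell (log2 fold change -0.38, limma, adjusted p = 0.0430). KIF14 (ENSG00000118193), which works with citron kinase at the midbody, was at 15.3 and 13.5 FPKM in NC and at 21.4 and 21.5 FPKM in SKA3-KD. The groups lay well apart, with a log2 fold change of 0.55 ± 0.08 (SE; limma, adjusted p = 0.0222). KIF20A (ENSG00000112984) carries PLK1 and the chromosomal passenger complex to the midzone. It was at 33.6 and 30.6 FPKM in NC and at 43.8 and 43.4 FPKM in SKA3-KD. Again the groups did not overlap, and the log2 fold change was 0.43 ± 0.07 (SE; limma, adjusted p = 0.0255). BRD8 on the opposite strand shares 268 bases with KIF20A and was itself higher (9.83 and 9.59 FPKM in NC, 12.03 and 12.05 FPKM in SKA3-KD, limma adjusted p = 0.0484), and whether the counting used strand is not given in the sources used here.

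KIF23 (ENSG00000137807) is the motor subunit of centralspindlin, which marks the cleavage plane. It was at 21.0 and 19.0 FPKM in NC and at 30.3 and 27.5 FPKM in SKA3-KD. The groups did not overlap, and the log2 fold change was 0.51 ± 0.08 (SE; limma, adjusted p = 0.0270). The 3 motors summed to 70.0 and 63.1 FPKM in NC and to 95.4 and 92.4 FPKM in SKA3-KD. Each of the 3 lost its call when any of the 4 libraries was left out, NC or SKA3-KD. The leave-one-out adjusted p ran from 0.0678 to 0.0967 for KIF14, from 0.0721 to 0.115 for KIF20A and from 0.0761 to 0.115 for KIF23, and without a mean-variance trend it was 0.0501 for KIF14, 0.0586 for KIF20A and 0.0583 for KIF23.

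**Figure D3:**
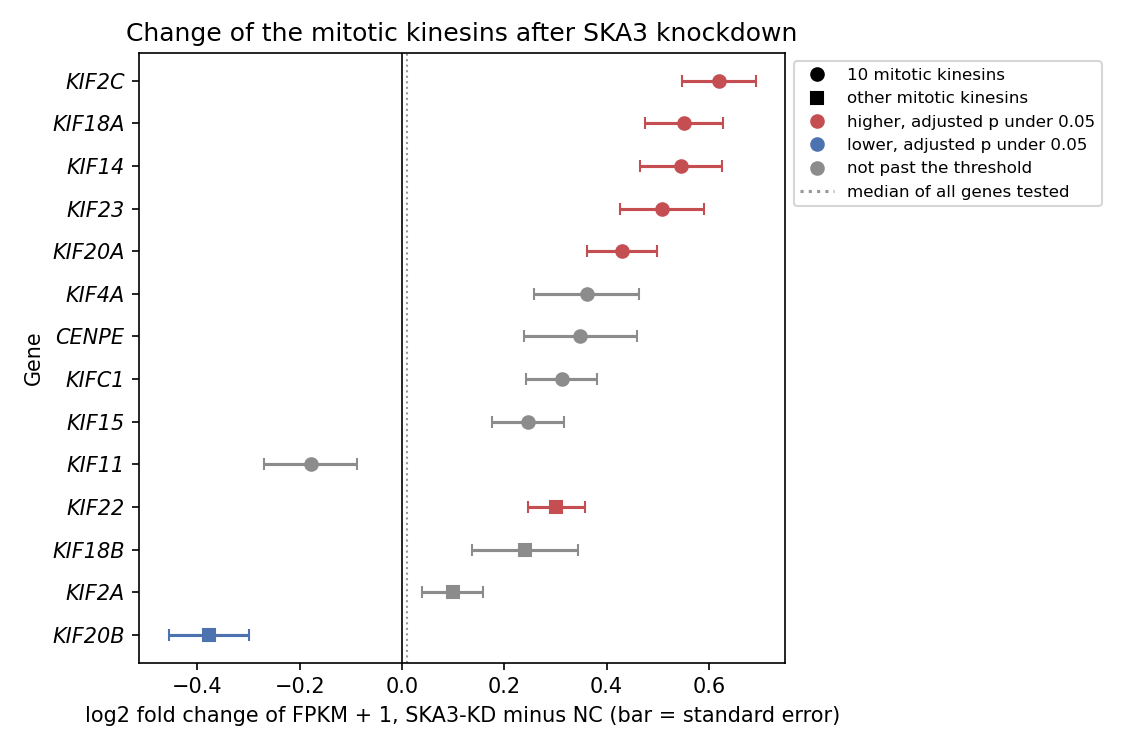
Log2 fold changes of FPKM + 1, SKA3-KD minus NC, for the 10 mitotic kinesins (circles) and 4 further mitotic kinesins (squares), with bars of 1 standard error from limma. Red marks genes higher and blue genes lower at an adjusted p under 0.05; KIF2C lies farthest right at 0.62, and KIF11 and KIF20B lie left of 0, of which KIF20B passed the threshold.

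FPKM is a value per length, so the levels of the motors can be ordered. In NC, KIF11 was the most abundant (34.8 ± 3.8 FPKM, SD, n = 2), followed by KIF20A (32.1 ± 2.1), KIF2C (29.9 ± 2.3) and KIFC1 (28.3 ± 2.0), and each of these overlapped its neighbour in the order. KIF23 came next, apart from both neighbours, and then KIF4A and KIF14, which overlapped. KIF18A, KIF15 and CENPE were the lowest, at 9.04, 7.97 and 6.85 FPKM. In SKA3-KD, KIF2C (46.5 ± 0.6 FPKM, SD, n = 2) stood highest, followed by KIF20A (43.6 ± 0.2), KIFC1 and KIF11. Only KIF11 with KIF23 and KIF15 with CENPE overlapped among neighbours in SKA3-KD. The 10 levels summed to 206.7 and 189.9 FPKM in NC and to 261.2 and 254.8 FPKM in SKA3-KD. Each value rested on between 364 and 2175 recovered reads, which gives a counting error of 5.24% at the fewest and 2.14% at the most and covers counting error only.

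Other kinesins of mitosis went both ways. KIF22, which binds chromosome arms and pushes them outwards, was at 25.06 and 25.03 FPKM in NC and at 30.9 and 31.3 FPKM in SKA3-KD, a rise by 0.30 ± 0.06 (SE) on the log2 scale (limma, adjusted p = 0.0345). KIF20B, a relative of KIF20A that takes part in late cytokinesis, was at 16.96 and 15.1 FPKM in NC and at 11.9 and 12.3 FPKM in SKA3-KD, a fall with a log2 fold change of -0.38 ± 0.08 (SE; limma, adjusted p = 0.0430). The call on KIF20B was lost with the replicate block (limma, adjusted p = 0.0512), without a trend (0.0774) and without the filter on low values (0.108), and the call on KIF22 without a trend (0.0742) and without the filter (0.0662). KIF18B (log2 fold change 0.24) and KIF2A (0.10) did not pass (limma, adjusted p = 0.192 and 0.318) and were named after their values were seen, KIF4B was too low to test, and KIF2B was not analysed here. The median of the 4 tested was 0.17, against 0.01 over all genes tested, of which 6.16% were higher and 6.11% lower. Both calls were lost when any library, NC 1, NC 2, SKA3-KD 1 or SKA3-KD 2, was left out, with 0 of 4 higher and 0 of 4 lower.

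The mRNAs of 34 proteins known to bind, recruit or regulate the mitotic kinesins were all tested. By limma 14 rose, 1 fell and 19 did not pass. Their median log2 fold change was 0.26, against 0.01 over all genes tested, of which 6.16% were higher and 6.11% lower. Leaving out any 1 library, NC or SKA3-KD, left 0 of the 14 higher calls. Among mitotic kinases and their cofactors, PLK1, which KIF20A brings to the midzone, was at 23.8 and 25.8 FPKM in NC and at 42.4 and 42.7 FPKM in SKA3-KD, a rise of 0.76 ± 0.07 (SE) on the log2 scale (limma, adjusted p = 0.0103). Its groups lay far apart. These are mRNA levels, while the study reports by western blot that PLK1 protein decreased after SKA3 knockdown. AURKA, the spindle pole kinase, rose by 0.54, its activator TPX2, which also loads KIF11 and KIF15 on the spindle, by 0.53, and the mitotic cyclin CCNB1 by 0.64.

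The chromosomal passenger subunits BIRC5 and CDCA8, which steer the kinase that inhibits KIF2C at centromeres, rose by 0.71 and 0.48 on the log2 scale. The kinase itself, AURKB (0.26, limma, adjusted p = 0.0831), and the scaffold INCENP (0.15, limma, adjusted p = 0.166) of the same complex, named after their values were seen, did not pass. At the spindle, HMMR, which guides KIF15 and TPX2, rose by 0.57, GTSE1, an inhibitor of KIF2C, by 0.53, and PSRC1, a regulator of KIF2C and spindle dynamics, by 0.46. At the midzone, PRC1, the bundling protein to which KIF4A and KIF14 bind, rose from 43.0 and 39.1 to 56.0 and 55.1 FPKM, or by 0.43, and CIT, the citron kinase partner of KIF14, by 0.37. The ratio of KIF4A to PRC1 overlapped between the groups, at 0.382 and 0.346 in NC and 0.341 and 0.358 in SKA3-KD. NEK7, one of the kinases upstream of KIF11 at the poles, fell, from 11.82 and 10.98 FPKM to 5.07 and 4.81 FPKM (log2 fold change -1.06 ± 0.07, SE, limma adjusted p = 0.00806), and did not pass without NC 1 or without NC 2.

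The remaining 3 of the 14 higher partners, named after their values were seen, were SGO2, NEK6 and BUB1B. Likewise chosen, RACGAP1, the other centralspindlin subunit, was at 36.9 and 34.7 FPKM in NC and at 45.7 and 40.7 FPKM in SKA3-KD and did not pass (limma, adjusted p = 0.0949), and ECT2, which centralspindlin recruits, overlapped between groups at 30.6 to 33.7 FPKM. The ratio of KIF23 to RACGAP1 was 0.570 and 0.548 in NC and 0.663 and 0.675 in SKA3-KD, without overlap. An exact two-sided permutation test of 2 against 2 libraries cannot give a p below 0.333 for it. CDK1 and MKI67 were likewise chosen after their values were seen. CDK1, the kinase that CCNB1 activates, overlapped between groups, at 48.1 to 56.6 FPKM over the 4 libraries. MKI67, a marker of cycling cells, was at 37.9 and 37.1 FPKM in NC and at 39.4 and 38.2 FPKM in SKA3-KD (log2 fold change 0.05, limma, adjusted p = 0.602). No count of mitotic cells was measured in these files, and its part in the kinesin levels was not tested.

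The rest of the kinesin family gave a background for the mitotic members. Of 32 interphase motors, light chains and adaptors, mostly carriers of organelles and vesicles, 29 were in the table and 17 were tested. Of these, 3 rose, none fell and 14 did not pass, with a median log2 fold change of 0.07 against 0.40 for the mitotic members. Over all genes tested, 6.16% were higher and 6.11% lower by limma, with a median of 0.01. KLC2, a light chain of the conventional kinesin, was at 6.06 and 5.95 FPKM in NC and at 9.18 and 9.60 FPKM in SKA3-KD (log2 fold change 0.57, limma, adjusted p = 0.0153). KIFC3, a minus-end motor, was at 21.7 and 24.6 FPKM in NC and at 32.8 and 36.5 FPKM in SKA3-KD (0.56, limma, adjusted p = 0.0265), and KIF1C, a vesicle motor, had a log2 fold change of 0.40 (limma, adjusted p = 0.0270). With any single library left out, NC or SKA3-KD, 0 of the 17 were higher.

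**Figure D4:**
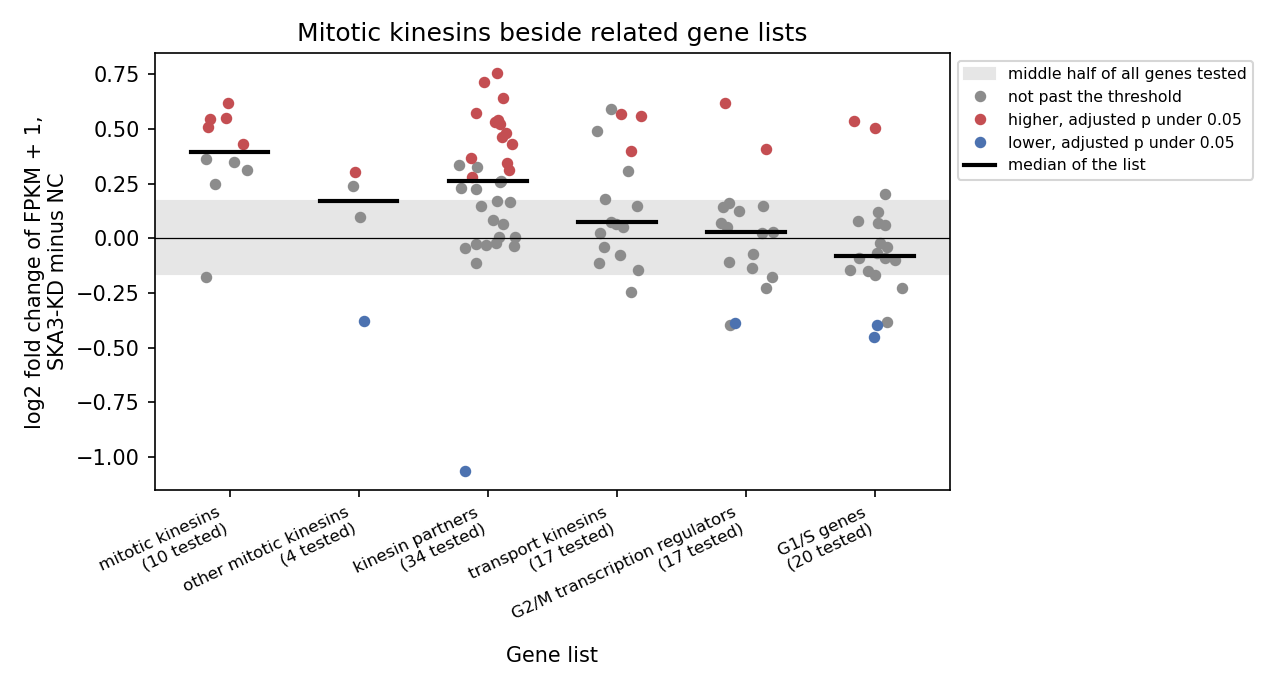
Log2 fold changes of FPKM + 1, SKA3-KD minus NC, for the genes of 6 lists. Each point is a gene, red higher and blue lower at an adjusted p under 0.05, black lines are list medians and the grey band spans the middle 50% of all genes tested; the medians run from 0.40 in the mitotic kinesins and 0.26 in their partners to -0.08 in the G1/S genes.

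Regulators of late cell cycle transcription and genes of the preceding phase were set beside the kinesins. For both lists the share over all genes tested was 6.16% higher and 6.11% lower by limma. Of 17 regulators tested, MYBL2, which encodes B-MYB, rose from 90.0 and 97.4 to 143.6 and 145.0 FPKM (log2 fold change 0.62, limma, adjusted p = 0.0118), and FOXM1 rose from 22.2 and 24.8 to 30.3 and 32.8 FPKM (0.41, limma, adjusted p = 0.0399). NFYC, a subunit of the CCAAT-binding factor NF-Y, fell from 8.12 and 8.82 to 6.48 and 5.99 FPKM (-0.39, limma, adjusted p = 0.0417). The other 14 did not pass, and the median was 0.03. Of 20 genes of the G1/S transition, RRM2 (0.54) and MCM6 (0.51) rose, UNG (-0.39) and CCNE1 (-0.45) fell (limma, adjusted p = 0.0129, 0.0231, 0.0212 and 0.0407), and the median was -0.08. Thus their median and that of the mitotic kinesins had opposite signs. The difference between the lists was not tested. Without NC 1 or without NC 2 no gene of the whole table passed the threshold, these included.

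The 5 genes outside these lists whose values over the 4 libraries lay closest to the mean profile of the 10 members were LRRC57, SPAG9, CKAP5, FHL2 and IQGAP1. Likeness was the Euclidean distance between log2(FPKM + 1) values centred over 4 libraries, among 7211 genes whose mean was 5 FPKM or more. It ran from 0.0151 for LRRC57 to 0.0225 for IQGAP1. CKAP5 was at 37.6 and 34.6 FPKM in NC and at 48.4 and 45.8 FPKM in SKA3-KD. With 4 libraries and the groups fixed, many genes can take a like profile, so this is a description only.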

How the data were processed

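RNA of 4 TU-177 libraries, 2 NC and 2 SKA3-KD, was analysed from 1 table of FPKM values per gene that the authors deposited, normalized by them for transcript length and library size. The submitters' processing notes name hg19, HISAT2, Bowtie2 2.2.8, StringTie 1.3.1 and Cuffdiff 2.1.1 without roles. The annotation and the use of strand are not given in the sources used here. The labels describe hairpin lentiviruses, and the study's text also describes other knockdown reagents. The 2 sources differ on where the line was obtained.

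Gene symbols came by Ensembl identifier from a reference list of gene names, or from GENCODE 29 where that list gave none (27199 of 28729 genes). The gene lists were matched by symbol. No coordinates were carried between builds. SKA3-KD was compared with NC by limma 3.58.1 in R 4.3.3 on log2(FPKM + 1) with lmFit and a trended eBayes, for the 12645 genes averaging 1 FPKM or more. P-values were adjusted by Benjamini-Hochberg over all of them, with a threshold of 0.05. A pseudocount of 1 understates changes of low genes.

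The steps of the FPKM values gave whole reads for 12444 of the genes tested (98.4%), within a tolerance of 0.02 reads where transcript length was used and 0.006 where proportions between libraries were used. The library sizes were estimated from the same steps, as 11966130 and 9015056 fragments for NC and 10177854 and 11793604 for SKA3-KD. The recovered reads were used in an alternative by limma voom.

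Promoter windows were RefSeq sequences (GRCh38.p14), of which 10 of 10 members had one. Scripts ran in Python 3.11.15 with pandas 2.3.3 and were tested on simulated data. The members and lists were chosen with earlier results of these data known. The genes named are the 10 members, members of other lists past the threshold (up to 12 a list by adjusted p), SKA3 and the 5 genes of nearest profile, and a gene outside this rule is said to be chosen after its values were seen or is named for an overlap, a marker check or a low level. Results were recomputed with a pseudocount of 0.1, without the filter on low values, with a minimum of 5 FPKM, with scaling by median ratios or by quantiles, without the trend, with the replicate block, by voom and without each library.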

Additional observations from a re-analysis of the deposited data

How the results depend on the processing

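Under the 8 alternatives that kept all 4 libraries, the log2 fold change of every mitotic kinesin kept its sign, and that of KIF11 stayed between -0.19 and -0.18 and never passed the threshold. The libraries carry replicate numbers 1 and 2 in both groups. Over the genes tested, the deviation of NC 1 from its group mean and that of SKA3-KD 1 had a correlation of 0.0973. With 2 libraries per group, that value cannot tell whether same-numbered libraries were paired. With the replicate block, 7 members were higher, where 7.92% of all genes were, adding KIFC1 (log2 fold change 0.31, limma, adjusted p = 0.0454) and CENPE (0.35, 0.0430), 5 transport kinesins were higher and 0 other mitotic kinesins lower, since KIF20B missed the threshold (0.0512). No other call on a member changed with the block.

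By limma voom on recovered reads, 9 members, 2 other mitotic kinesins and 6 transport kinesins (median 0.0864) were higher, with KIF15 at 0.28, KIFC1 at 0.33, CENPE at 0.38 and KIF4A at 0.37 now past the threshold. Over all genes it called 1750 higher and 1544 lower. With a mean FPKM of at least 5, where 13.6% of all genes were higher, KIFC1 (0.31) and KIF4A (0.36) passed, and 5 transport kinesins were higher (median 0.15). Without a filter, 0 members were higher, with adjusted p between 0.0564 and 0.0823 for KIF18A (0.55), KIF2C (0.62), KIF14 (0.55), KIF20A (0.43) and KIF23 (0.51); 0 other mitotic kinesins were higher and 0 lower (median 0.10), 2 partners and 0 transport kinesins were higher, and over all genes 48 were higher and 81 lower. Without a trend, 2 members were higher, since KIF14 (0.55), KIF20A (0.43) and KIF23 (0.51) missed the threshold; 0 other mitotic kinesins were higher and 0 lower, 7 partners were higher, and 312 genes were higher and 381 lower. The transport kinesin median was 0.0935 with a pseudocount of 0.1 and 0.10 with quantile normalization.

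With a library left out, over all genes 0 to 46 were higher and 0 to 135 lower, and calls were lost in every list. The log2 fold change then ran from -1.14 to -1.04 for SKA3, 0.50 to 0.61 for KIF18A, 0.54 to 0.70 for KIF2C, 0.46 to 0.63 for KIF14, 0.36 to 0.50 for KIF20A and 0.44 to 0.58 for KIF23. Members higher were 0 to 0 (median 0.37 to 0.49), other mitotic kinesins higher or lower 0 to 0 (median 0.12 to 0.20), partners higher 0 to 0 and lower 0 to 1 (median 0.20 to 0.29), and transport kinesins higher 0 to 0 (median 0.06 to 0.13). The smaller number of libraries is part of that alternative's construction, and the cause of the other differences was not tested.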
